A study of Homo sapiens with 12 samples.

Results

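The genes described here are 10 transcripts of the fibroblast and myofibroblast matrix programme, measured in a lung cancer cell line: the collagen chain genes COL1A1, COL1A2, COL3A1 and COL6A3, the matrix glycoprotein genes SPARC and FN1, the proteoglycan genes LUM and DCN, and the contractile genes ACTA2 and TAGLN. They were picked by symbol from the 39266 genes of the count table, to see whether their reads follow treatment or single libraries, and the choice named library 2 of DAC+OSI and library 2 of Control as the libraries in question. Earlier results of the same libraries were known when they were picked, so their levels, fold changes and calls are given as a description and no p-value is attached to them. Whether a call was kept in refits of these libraries is part of that description and lends the genes no further support. Of the 10 genes, 8 passed the filter on low counts that left 20820 genes for testing, and LUM and DCN did not.

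Messenger RNA was sequenced after oligo(dT) enrichment from PC9-OR cells, an osimertinib-resistant line derived from PC9, an established line of non-small cell lung cancer. The groups were OSI, given osimertinib, an inhibitor of the epidermal growth factor receptor; DAC, given dauricine, a plant alkaloid; DAC+OSI, given both compounds; and Control. Each group had 3 libraries, all from the same line, and the doses, the times and the vehicle are not stated in the labels. The labels do not say whether the 3 libraries of a group came from separate cultures, so the spread between them may be technical.

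Fibrillar collagens are secreted as triple helices and laid down as fibres, with type I collagen built from the products of COL1A1 and COL1A2 and type III collagen from that of COL3A1. Fibroblasts are the main source of these chains in tissue, and when they turn into myofibroblasts they add smooth muscle actin (ACTA2) and the actin-binding protein transgelin (TAGLN). Carcinoma cells of epithelial origin usually make little fibrillar collagen, but many secrete fibronectin (FN1) and SPARC.

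Total counts ran from 24.9 mega-counts (M) in DAC+OSI library 2 to 66.9 M in DAC+OSI library 3, and the 10 genes together held 0.0265% to 0.0524% of them. Levels are CPM, a gene's counts for each M of library total, after TMM scaling (trimmed mean of M values); DAC+OSI library 2 had a TMM factor of 0.826 and the other libraries 0.978 to 1.05. A count of 0 allows up to 3 counts, which is 0.0449 to 0.12 CPM depending on the library and covers counting error only. DAC+OSI library 2 and Control library 2 differed from the rest of their groups: over 20443 genes, how far a gene lay from its group mean correlated with its GC content at Spearman rho 0.59 and 0.57 there, against -0.53 to -0.37 in the other libraries of both groups. In the OSI and DAC libraries the same rho lay between -0.092 and 0.061. Log2 fold changes of COL1A1, COL1A2, SPARC and ACTA2 are therefore also given without DAC+OSI library 2, Control library 2 or both. The fit without both is called the 10-library fit. For the other tested genes of the set, only whether a call was made in such fits is given.

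The fibroblast label was checked against other markers. Of 22 fibroblast markers 21 were in the table, and 3 to 9 of these had a count of 0 in any library. PDGFRA, a growth factor receptor of fibroblasts, had at most 5 counts in a library; FAP had at most 4; PDPN, MFAP5, OGN and CXCL12 had at most 2 each. PDGFRB, THY1, MFAP4, FBLN2, FBN1 and TWIST2 were counted more often, with maxima of 2.14, 1.56, 1.61, 1.17, 3.52 and 12.6 CPM. All 6 epithelial markers (EPCAM, CDH1, KRT7, KRT8, KRT18 and KRT19) exceeded 1 CPM in every library and summed to 12400 to 14200 CPM in OSI, 14800 to 16000 CPM in DAC, 12800 to 20200 CPM in DAC+OSI and 9720 to 12400 CPM in Control. The fibroblast markers summed to 449 to 470, 112 to 125, 250 to 1130 and 109 to 167 CPM in the OSI, DAC, DAC+OSI and Control libraries, and most of that was FBLN1, a matrix protein gene with 98.4 to 1110 CPM. The 7 leukocyte markers summed to 13.4 to 68.6 CPM and the 6 endothelial markers to 4.95 to 28.5 CPM, both with the maximum in DAC+OSI library 2; their part in the levels of the set was not tested. PDGFRA, FAP and PDPN, and DCN of the set itself, were thus at or near 0, whereas FBLN1, TWIST2 and FBN1 were counted in every library. The markers went both ways and decide no label, so the genes are called here the collagen, matrix and contractile genes. In bulk RNA, fewer cells of a type and less RNA per cell cannot be told apart.

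The promoter windows of ACTA2 are shown because it is the gene of the set with the widest range of levels among those counted above the floor in every library, and because a known regulator of contractile genes, serum response factor, binds the CArG box. RefSeq (GRCh38.p14) held promoter windows, 250 bases before to 50 after the start, for 4 of the 10 genes in 5 windows, among them 2 starts of ACTA2, which lies on the minus strand. Capitals mark CArG boxes in which 1 of the central A or T letters is G or C.
ACTA2 downstream start, chr10:88952724-88953023, minus strand: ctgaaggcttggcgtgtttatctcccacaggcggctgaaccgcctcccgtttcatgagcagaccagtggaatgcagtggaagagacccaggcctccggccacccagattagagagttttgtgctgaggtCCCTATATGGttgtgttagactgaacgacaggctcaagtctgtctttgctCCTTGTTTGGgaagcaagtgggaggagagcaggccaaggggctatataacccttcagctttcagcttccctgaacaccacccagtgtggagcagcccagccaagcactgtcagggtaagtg
ACTA2 upstream start, chr10:88991288-88991587, minus strand: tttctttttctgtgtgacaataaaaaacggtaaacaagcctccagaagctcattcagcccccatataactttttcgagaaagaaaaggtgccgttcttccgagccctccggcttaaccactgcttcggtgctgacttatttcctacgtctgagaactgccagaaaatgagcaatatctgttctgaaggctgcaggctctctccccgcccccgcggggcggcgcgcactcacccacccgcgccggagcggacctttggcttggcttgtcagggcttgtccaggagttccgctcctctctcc
The downstream window held such a box 121 and 71 bases before the start, and the upstream window held none. No window of COL6A3, SPARC or FN1 held a CArG box, either exact or with this 1 change. Both strands were searched, and the motif is its own reverse complement. Of 35116 promoter windows of the same length, 1.29% held an exact CArG box and 6.94% held one with 1 G or C in its centre. The counts do not tell which start the reads came from.

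The alpha 1 chain of type I collagen had its highest levels under the combination. COL1A1 (ENSG00000108821, chromosome 17), which encodes the alpha 1 chain, had 227, 282 and 353 counts in the OSI libraries, 558, 551 and 499 in DAC, 1424, 1609 and 2573 in DAC+OSI and 608, 755 and 402 in Control. In CPM this was 5.47, 5.84 and 7.54 in OSI, 10.3, 9.42 and 9.71 in DAC, 25.3, 78.3 and 38.1 in DAC+OSI and 9.85, 17.9 and 9.32 in Control. All 3 DAC+OSI libraries were above every library of the other groups and all 3 OSI libraries below every other library, while the DAC libraries lay within the range of Control. Such separation was common. Of 20820 tested genes, 40.2% did not overlap in OSI against Control, 39.1% in DAC against Control and 36.7% in DAC+OSI against Control. The share was 32.1% in DAC+OSI against OSI and 34.6% in DAC+OSI against DAC. These shares apply to each gene below whose libraries are said not to overlap. The means were 6.29 ± 1.1, 9.8 ± 0.43, 47.2 ± 27.6 and 12.3 ± 4.79 CPM in OSI, DAC, DAC+OSI and Control (SD, n = 3 each).

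In DAC+OSI the log2 fold change of COL1A1 was 1.93 ± 0.36 against Control (SE), 2.9 ± 0.37 against OSI and 2.26 ± 0.36 against DAC. Library 2 of DAC+OSI, the shallowest, had the highest CPM; by library totals without TMM it was 64.6 CPM, against 26.3 and 38.5 CPM in the other 2 DAC+OSI libraries. Without it the log2 fold change against Control was 1.33, without Control library 2 it was 2.28, and in the 10-library fit it was 1.72. These 3 comparisons of COL1A1 stayed past the threshold of an adjusted p under 0.05 in all 19 alternatives, and in each leave-one-out fit among them. Under OSI alone the log2 fold change against Control was -0.97 ± 0.36, which was not called; it was called in the 10-library fit, without DAC+OSI library 1 or 2, by library totals, without the filter and with DESeq2.

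COL1A2 (ENSG00000164692, chromosome 7), which encodes the alpha 2 chain, was far rarer. It had 7, 3 and 0 counts in the OSI libraries, 6, 4 and 1 in DAC, 51, 279 and 112 in DAC+OSI and 34, 103 and 8 in Control. The sums were 10, 11, 442 and 145 counts in OSI, DAC, DAC+OSI and Control. The OSI and DAC libraries were all below the Control libraries and the DAC+OSI libraries, and DAC+OSI overlapped Control. The margin to Control was narrow, 0.169 CPM in OSI library 1 against 0.185 CPM in Control library 3.

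DAC+OSI library 2 alone held 279 of the 442 counts of COL1A2 in its group, and Control library 2 held 103 of 145. In CPM these libraries had 13.6 and 2.44, against 0.905 and 1.66 in the other DAC+OSI libraries and 0.551 and 0.185 in the other Control libraries. The log2 fold change of DAC+OSI against Control was 2.30 ± 0.98 and not called; it was 0.26 without DAC+OSI library 2, 3.73 without Control library 2 and 1.75 in the 10-library fit. With the replicate number as a block it was 2.2 and called. Fitted fold changes against OSI and DAC rest on 10 and 11 counts and depend on the prior count, so the counts stand in their place.

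**Figure D1:**
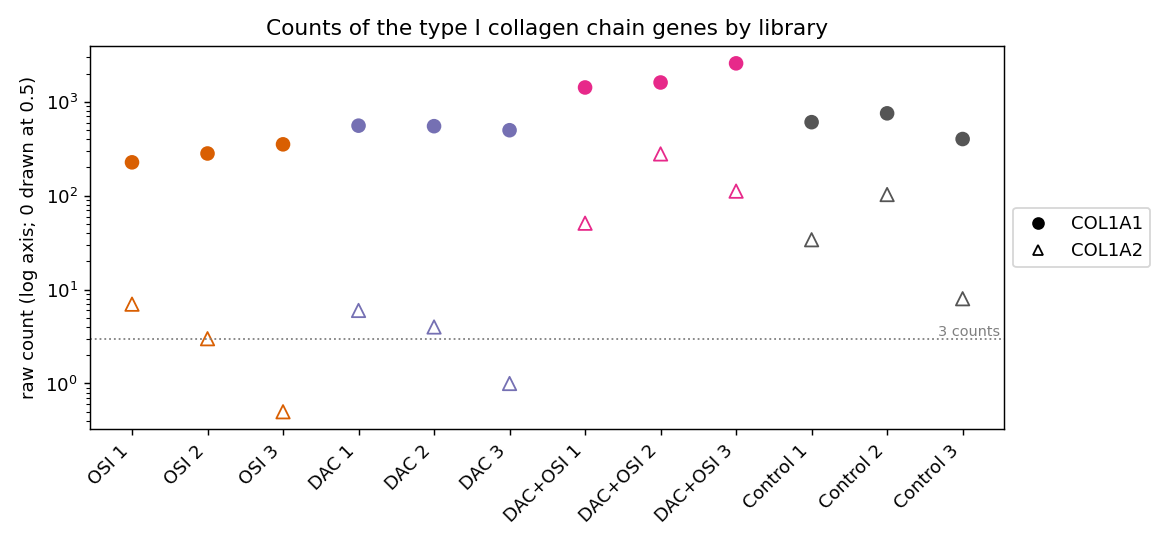
Raw counts of COL1A1 (filled circles) and COL1A2 (open triangles) in each of the 12 libraries, on a log axis with a count of 0 drawn at 0.5 and a dotted line at 3 counts. COL1A1 has 1424 to 2573 counts in the 3 DAC+OSI libraries and at most 755 elsewhere, whereas COL1A2 is between 0 and 7 counts in OSI and DAC and reaches 279 and 103 counts in library 2 of DAC+OSI and of Control.

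The 2 chains did not keep a fixed ratio. With levels per kilobase of exon, COL1A1 exceeded COL1A2 by 36.8 times in OSI library 1, by 106 and 157 times in DAC libraries 1 and 2, by 31.7, 6.55 and 26.1 times in DAC+OSI and by 20.3, 8.33 and 57.1 times in Control. The remaining libraries had 3 or fewer counts of COL1A2, so no ratio is given. The lowest ratios of DAC+OSI and of Control were those of their library 2. Type I collagen protein holds more alpha 1 than alpha 2 chains.

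The other collagen genes were low in every group. COL3A1 (ENSG00000168542, chromosome 2), the type III chain, had 17, 10 and 14 counts in OSI, 8, 8 and 8 in DAC, 15, 14 and 23 in DAC+OSI and 18, 28 and 20 in Control. DAC was the lowest group, with 0.147, 0.137 and 0.156 CPM against 0.292, 0.663 and 0.464 CPM in Control, and no DAC library reached any Control library. The log2 fold change of COL3A1 in DAC against Control was -1.66 ± 0.48, which was called with 12 libraries but not in the 10-library fit, nor with RLE scaling, no filter, limma-voom or the replicate block, nor without any single DAC library, any single OSI library, Control library 2 or 3, or DAC+OSI library 3. In DAC+OSI against Control it was -0.22 ± 0.45, with overlapping libraries.

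COL6A3 (ENSG00000163359, chromosome 2), a chain of the beaded microfibril collagen type VI, had 37, 52 and 42 counts in OSI, 100, 65 and 42 in DAC, 35, 26 and 35 in DAC+OSI and 83, 86 and 53 in Control. In CPM DAC+OSI had 0.621, 1.26 and 0.518 and Control 1.34, 2.04 and 1.23, with DAC+OSI library 2 just above the lowest Control library. The log2 fold change of DAC+OSI against Control was -1.03 ± 0.38 and not called. It was called without DAC+OSI library 2, in the 10-library fit, with the replicate block, by library totals, without the filter, with DESeq2 and with limma-voom. COL6A3 in DAC overlapped Control, from 0.817 to 1.84 CPM.

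SPARC (ENSG00000113140, chromosome 5) encodes osteonectin, a secreted protein that binds collagen and calcium. It had 781, 538 and 600 counts in OSI, 371, 424 and 401 in DAC, 304, 313 and 360 in DAC+OSI and 1002, 865 and 725 in Control. In CPM this was 18.8, 11.1 and 12.8 in OSI, 6.83, 7.25 and 7.8 in DAC, 5.4, 15.2 and 5.33 in DAC+OSI and 16.2, 20.5 and 16.8 in Control. Every DAC and every DAC+OSI library was below every Control library, and DAC+OSI library 2 was nearer to Control than to the other libraries of its group.

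Against Control, the log2 fold change of SPARC was -0.32 ± 0.34 in OSI, -1.29 ± 0.34 in DAC and -1.08 ± 0.34 in DAC+OSI. Without DAC+OSI library 2 the last was -1.76, and in the 10-library fit it was -1.63. The call in DAC against Control ended without any single DAC or Control library, and the call in DAC+OSI against Control ended without any single Control library and without DAC+OSI library 1 or 3. SPARC shares 381 exonic bases, 7.89% of its exons, with the antisense gene CLMAT3, which had at most 12 counts in a library.

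FN1 (ENSG00000115414, chromosome 2), which encodes fibronectin, the ligand of alpha 5 beta 1 integrin, was the most abundant gene of the set. It had 17666, 20538 and 22697 counts in OSI, 19339, 18050 and 16292 in DAC, 12064, 8096 and 15000 in DAC+OSI and 21339, 20241 and 16731 in Control. In CPM this was 426, 425 and 485 in OSI, 356, 309 and 317 in DAC, 214, 394 and 222 in DAC+OSI and 346, 479 and 388 in Control. DAC+OSI libraries 1 and 3 were the lowest of the 12, and DAC+OSI library 2 lay among the Control libraries.

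In DAC+OSI the log2 fold change of FN1 was -0.55 ± 0.21 against Control, not called, and -0.69 ± 0.21 against OSI, called. The first was called in the 10-library fit, without DAC+OSI library 2, with the replicate block, by library totals, without the filter and with limma-voom. The call against OSI ended with RLE scaling and without any single OSI or DAC library, Control library 1 or 3, or DAC+OSI library 1 or 3. In OSI and in DAC, FN1 differed from Control by 0.14 ± 0.21 and -0.31 ± 0.21 on the log2 scale, neither called.

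Both small leucine-rich proteoglycan genes, whose products bind collagen fibrils and are hallmarks of fibroblasts, were at or near 0. LUM (ENSG00000139329, chromosome 12), which encodes lumican, had 4, 0 and 4 counts in OSI, 0, 2 and 0 in DAC, 2, 0 and 2 in DAC+OSI and 6, 2 and 12 in Control, 34 counts in all. DCN (ENSG00000011465, chromosome 12), which encodes decorin, had 2 counts in DAC+OSI library 2 and 0 in the other 11 libraries. No fold change is given for either, since nearly all values are at or under 3 counts or close to it.

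**Figure D2:**
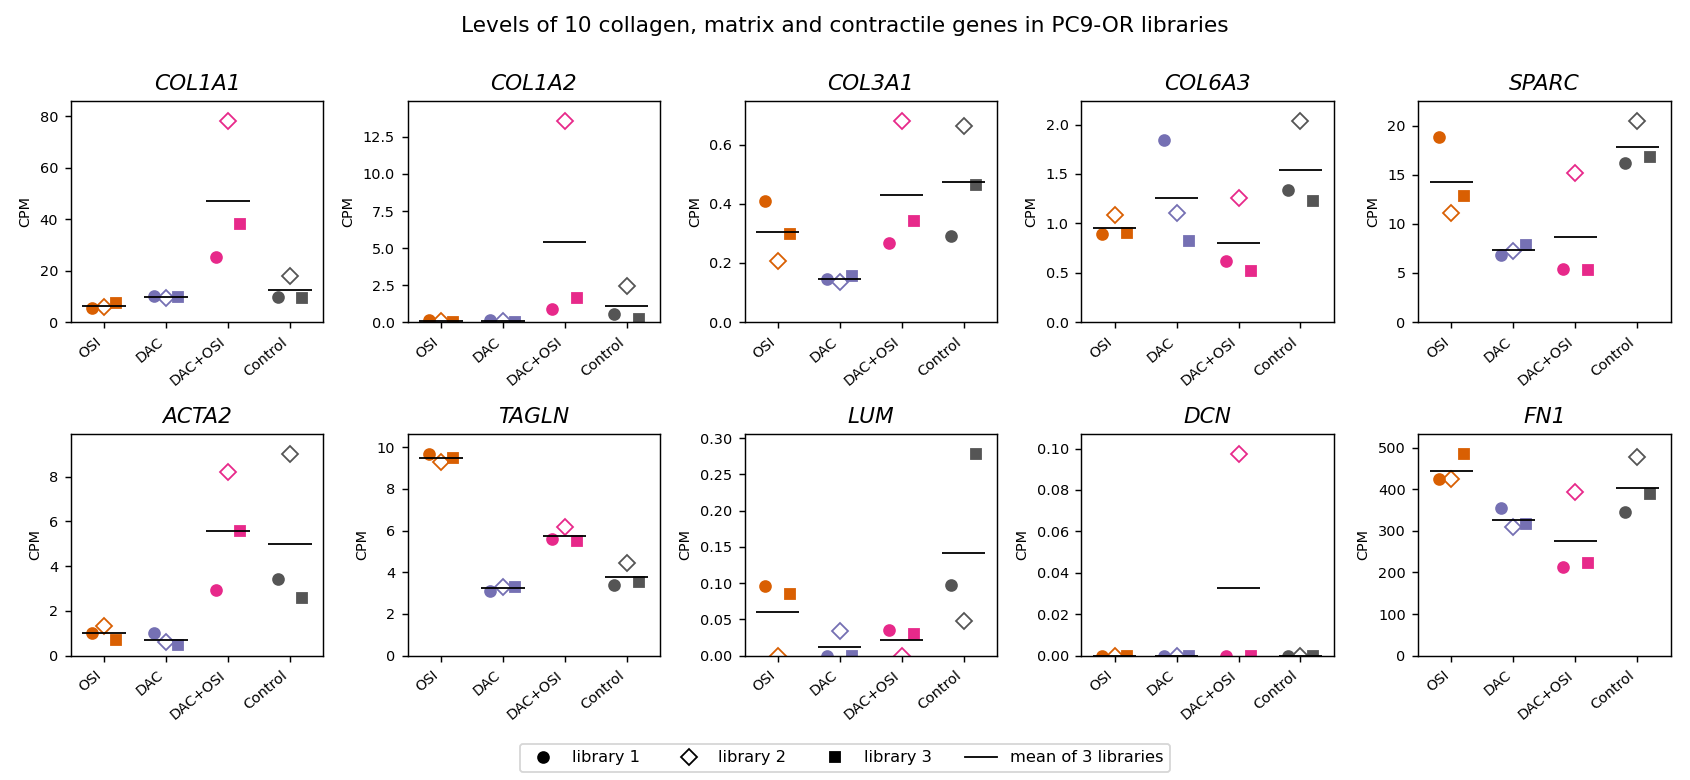
Level of each of the 10 genes (CPM, linear axes that start at 0) in the 3 libraries of OSI, DAC, DAC+OSI and Control; circles, diamonds and squares are libraries 1, 2 and 3 and the bar is their mean. COL1A1 is highest in DAC+OSI (25.3 to 78.3 CPM), TAGLN in OSI (9.3 to 9.67 CPM) and ACTA2 is lowest in OSI and DAC (0.486 to 1.33 CPM), with the open diamond of library 2 at the top of the DAC+OSI and Control columns for the 8 genes that passed the filter.

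The contractile genes ACTA2 and TAGLN did not move together. ACTA2 (ENSG00000107796, chromosome 10), which encodes smooth muscle alpha actin, had 41, 64 and 33 counts in OSI, 55, 35 and 25 in DAC, 164, 169 and 375 in DAC+OSI and 211, 380 and 111 in Control. In CPM this was 0.988, 1.33 and 0.705 in OSI, 1.01, 0.599 and 0.486 in DAC, 2.91, 8.22 and 5.55 in DAC+OSI and 3.42, 9 and 2.57 in Control. All OSI and DAC libraries were below all DAC+OSI and Control libraries, and DAC+OSI overlapped Control.

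The log2 fold change of ACTA2 was -2.30 ± 0.5 in OSI and -2.83 ± 0.52 in DAC against Control, and it was 2.44 ± 0.51 in DAC+OSI against OSI and 2.96 ± 0.52 against DAC. These 4 comparisons were called in all alternatives; without Control library 2 the differences of OSI and DAC from Control were -1.57 and -2.12. For DAC+OSI against Control the log2 fold change was 0.14 ± 0.46, with -0.27 without DAC+OSI library 2, 0.85 without Control library 2 and 0.49 in the 10-library fit, none of them called. The interaction on the log2 scale, which is the difference of DAC+OSI from OSI minus the difference of DAC from Control, was 5.27 ± 0.72 for ACTA2.

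The strand of the counting is not stated in the labels, and ACTA2 shares 380 exonic bases (12.8%) with FAS and 516 (17.3%) with its antisense gene ACTA2-AS1 on the other strand. FAS, a death receptor gene, had 3.46 to 4.27 CPM in OSI, 2 to 2.9 in DAC, 1.7 to 2.07 in DAC+OSI and 1.49 to 2.2 in Control. ACTA2-AS1 had at most 17 counts in a library. ACTG2, the gene of the close relative smooth muscle gamma actin, had 16, 38 and 46 counts in OSI, 4, 6 and 6 in DAC, 34, 24 and 56 in DAC+OSI and 26, 33 and 15 in Control. ACTG2 in OSI thus overlapped Control and DAC+OSI, unlike ACTA2. In DAC every library was below all Control and DAC+OSI libraries for ACTG2, as for ACTA2. The labels do not say how reads matching several actin genes were counted. The part of FAS, ACTA2-AS1 and ACTG2 reads in the count of ACTA2 was not tested.

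TAGLN (ENSG00000149591, chromosome 11), which encodes transgelin, an actin-binding protein of smooth muscle and of many cultured cells, was highest in OSI. It had 401, 449 and 444 counts in OSI, 168, 191 and 170 in DAC, 316, 127 and 371 in DAC+OSI and 209, 187 and 152 in Control. In CPM this was 9.67, 9.3 and 9.49 in OSI, 3.09, 3.27 and 3.31 in DAC, 5.61, 6.18 and 5.49 in DAC+OSI and 3.39, 4.43 and 3.52 in Control. The OSI libraries, the DAC+OSI libraries and the Control and DAC libraries formed 3 levels without overlap between them, with DAC just below the lowest Control library.

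TAGLN had a log2 fold change of 1.33 ± 0.14 in OSI, -0.23 ± 0.14 in DAC and 0.61 ± 0.14 in DAC+OSI against Control, and -0.72 ± 0.14 in DAC+OSI against OSI. The call in DAC+OSI against Control ended without Control library 1 or 3 and without the filter on low counts; the calls in OSI against Control and in DAC+OSI against OSI and against DAC (0.83 ± 0.14) held in all alternatives. TAGLN shares 446 exonic bases (11.4%) with PCSK7 on the other strand, a proprotein convertase gene with 16 to 26.3 CPM in 11 libraries and 64.5 CPM in DAC+OSI library 2. The part of PCSK7 reads in the count of TAGLN was not tested.

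Per kilobase of exon, the mean levels over the 12 libraries ordered the genes as FN1 (21 CPM per kb), SPARC (2.49), COL1A1 (1.93), TAGLN (1.42), ACTA2 (1.03), COL1A2 (0.147), COL6A3 (0.0579), COL3A1 (0.0497), LUM (0.0195) and DCN (0.000631). FN1, with 12.4 to 28 CPM per kb, did not overlap any other gene of the set. The ranges of SPARC (1.1 to 4.24), COL1A1 (0.557 to 7.97), TAGLN (0.789 to 2.47) and ACTA2 (0.163 to 3.02 CPM per kb) overlapped each other, as did those of COL6A3 (0.0264 to 0.104) and COL3A1 (0.0201 to 0.1). COL1A2 ran from 0 to 1.22 CPM per kb, across the levels of both neighbours.

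The genes were chosen with library 2 of DAC+OSI and library 2 of Control already in question, so the levels there restate that choice and nothing is read from them. These libraries were the highest of their group for each of the 8 tested genes of the set; over all tested genes this held for 42.2% in DAC+OSI, 41.1% in Control and 29.1% in both. On the log2 scale COL1A2 deviated from its group mean by 2.28 in DAC+OSI library 2 and 1.84 in Control library 2. ACTA2 deviated by 0.68 in DAC+OSI library 2 and 1.06 in Control library 2, and COL1A1 by 0.89 and 0.60.

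GC content, over all annotated transcripts of a gene, was 61% in COL1A1, 57.8% in TAGLN and 49.2% to 52.3% in COL1A2, COL3A1, COL6A3, SPARC, ACTA2 and FN1. COL1A1 deviated by 0.89 and TAGLN by 0.10 in DAC+OSI library 2, and by 0.60 and 0.24 in Control library 2. In OSI library 2 was the highest for COL6A3 and ACTA2, and in DAC it was the highest for none of the 8 genes. The part of GC content and of depth in these deviations was not tested.

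**Figure D3:**
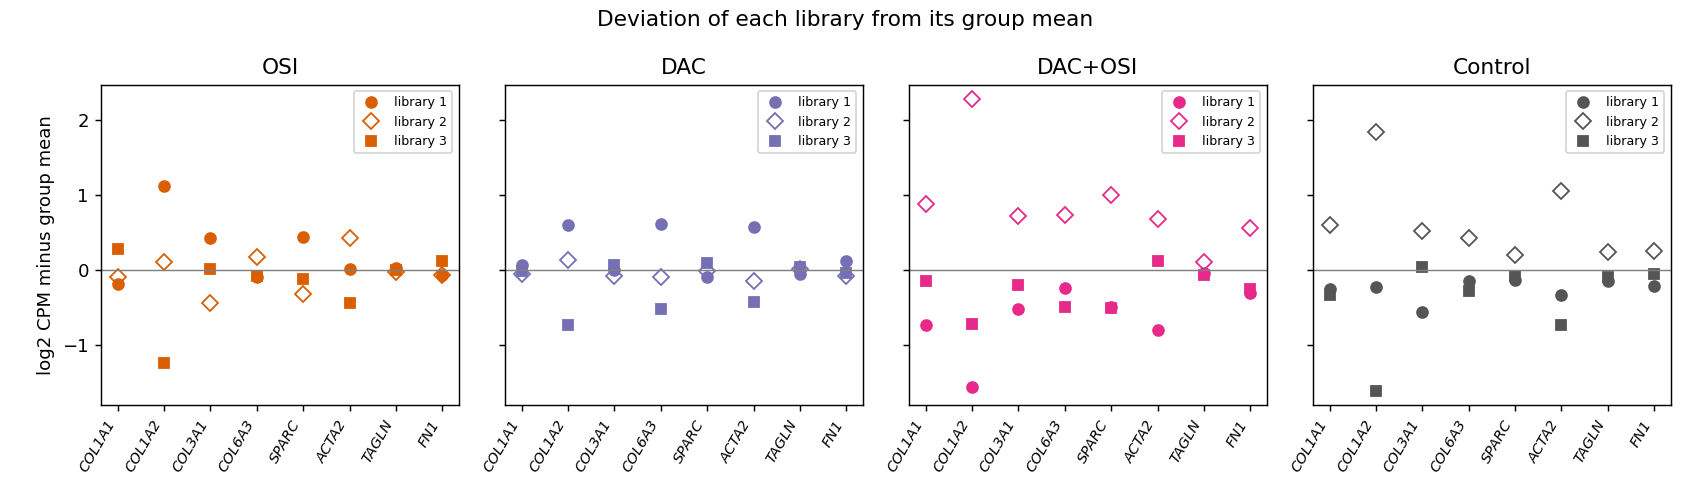
Deviation of each library from its group mean (log2 CPM, prior count 2) for the 8 genes that passed the filter, in OSI, DAC, DAC+OSI and Control. Library 2 (open diamonds) is above the mean for all 8 genes in DAC+OSI and in Control, by up to 2.28 and 1.84 for COL1A2, and scatters around 0 in OSI and DAC.

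Calls among the 8 tested genes are listed by comparison, beside the share of all tested genes that was called. OSI against Control had 2 calls, TAGLN higher and ACTA2 lower, where 18.9% of all tested genes were called (10.6% higher and 8.23% lower). DAC against Control had 3 calls, all lower (ACTA2, SPARC and COL3A1), where 9.43% of tested genes were called (5.33% higher and 4.11% lower); 1 call, ACTA2, was left without Control library 2 or 3 or any single DAC library. DAC+OSI against Control had 3 calls, COL1A1 and TAGLN higher and SPARC lower, where 28.1% were called (15.4% higher and 12.8% lower).

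Nothing in the labels says that a replicate number pairs libraries. With the replicate number as a block there were 6 calls in DAC+OSI against Control, COL1A2, COL6A3 and FN1 being added. The count was 1 without Control library 1 or 3, 5 without DAC+OSI library 2 and 6 in the 10-library fit. DAC+OSI against OSI had 5 calls (COL1A1, COL1A2 and ACTA2 higher, TAGLN and FN1 lower), where 17% were called (9.01% higher and 7.96% lower). DAC+OSI against DAC had 4 calls, all higher (COL1A1, COL1A2, ACTA2 and TAGLN), where 10.6% were called (6.1% higher and 4.52% lower). The calls of COL1A2 against OSI and against DAC were not made with limma-voom, nor the call against DAC without DAC library 2 or 3. For the interaction there were 3 calls, COL1A1, COL1A2 and ACTA2, where 2.92% were called (1.01% higher and 1.91% lower). The 3 comparisons against Control share its libraries, and the last 3 share the DAC+OSI libraries.

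Genes of the same programme outside the set were taken from 7 lists, 156 genes in all, of which 138 were tested. These lists too were chosen with earlier results of these data known, so their tests are not independent of that choice. In OSI against Control 25 of the 138 were higher and 22 lower, a share of 34.1% against 18.9% of all tested genes. In DAC against Control 14 were higher and 11 lower (18.1% against 9.43%), with 10 to 16 calls when any single DAC or Control library was left out and 50 without DAC+OSI library 2. In DAC+OSI against Control 41 were higher and 21 lower (44.9% against 28.1%). In DAC+OSI against OSI 18 were higher and 17 lower (25.4% against 17%), with 17 to 21 calls without any single OSI library, and in DAC+OSI against DAC 21 were higher and 14 lower (25.4% against 10.6%), with 16 to 19 calls without any single DAC library. The interaction had 3 higher and 2 lower (3.62% against 2.92%), with 17 calls without DAC+OSI library 2 and 2 or 3 without Control library 1 or any single OSI or DAC library. The 10-library fit called 82, 57, 79, 83, 58 and 42 of the listed genes in these 6 comparisons.

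**Figure D4:**
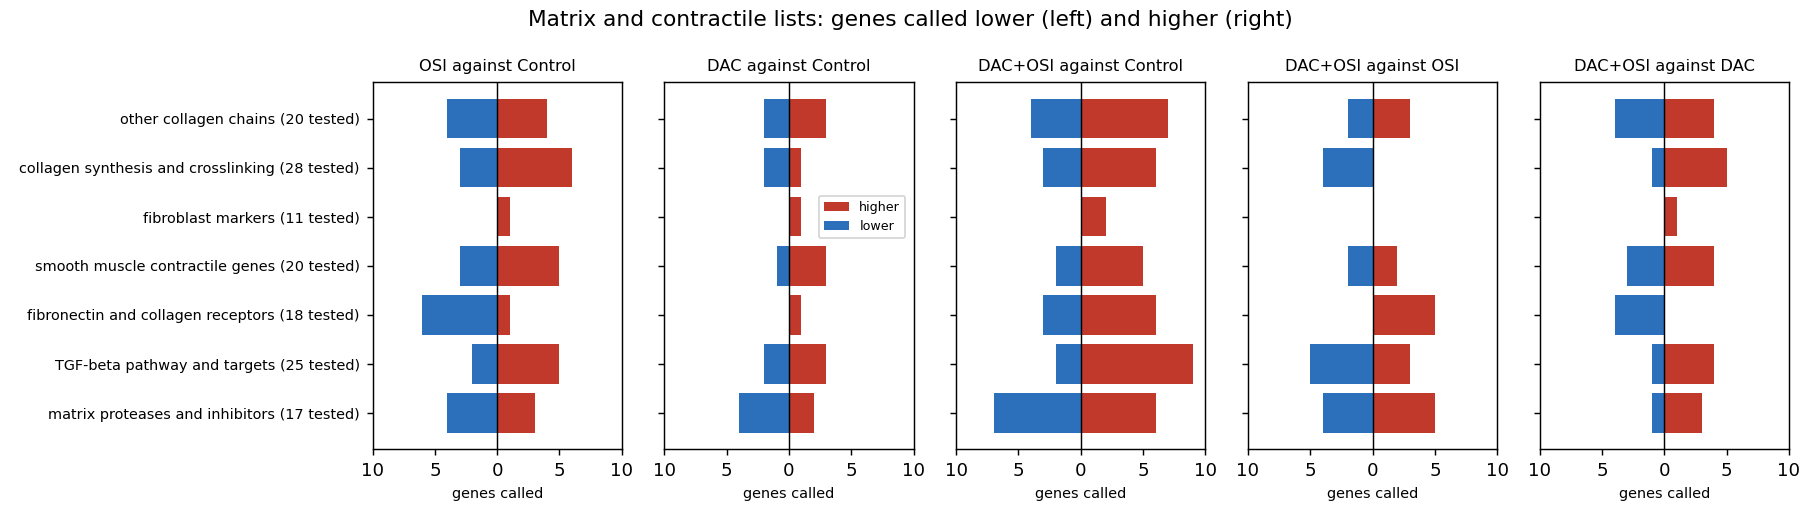
Number of tested genes called higher (red, right) and lower (blue, left) at an adjusted p under 0.05 in 7 lists of matrix and contractile genes, for 5 comparisons. DAC+OSI against Control has the longest bars, with 9 TGF-beta genes higher and 7 matrix proteases and inhibitors lower, and each list with more than 2 calls in a comparison against Control has genes on both sides.

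Of the other collagen chains, 20 of 22 were tested, with 4 higher and 4 lower in OSI, 3 higher and 2 lower in DAC, and 7 higher and 4 lower in DAC+OSI against Control (median log2 fold changes 0.06, 0.08 and 0.13, against -0.01, 0.01 and 0.03 over all tested genes). In the 10-library fit these counts were 6 higher and 4 lower in OSI, 7 higher and 3 lower in DAC, and 7 higher and 5 lower in DAC+OSI. COL4A6, a basement membrane chain, fell to 19.5 ± 1.46 CPM in OSI, against 62.5 ± 2.21 in Control (3.21-fold lower, adjusted p 9.39e-07), and had 19.8 ± 1.11 CPM in DAC+OSI (3.16-fold lower, adjusted p 4.71e-07). COL13A1, a transmembrane collagen, fell to 2.13 ± 0.55 CPM in OSI, against 19.7 ± 0.966 in Control (9.27-fold, adjusted p 1.01e-06). COL12A1, which coats collagen fibrils, rose to 38.7 ± 3.68 CPM in OSI, against 13.7 ± 1.54 in Control (2.82-fold, adjusted p 7.78e-06). COL9A2, a chain of cartilage collagen IX, rose to 24.9 ± 2.95 CPM in DAC+OSI, against 3.7 ± 0.702 in Control (6.76-fold, adjusted p 2.33e-07), and to 12.7 ± 0.396 CPM in DAC (3.44-fold, adjusted p 2.66e-05). COL1A1 was thus above its Control level in DAC+OSI alongside some other chains and opposite to COL4A6 and COL13A1.

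Collagen synthesis and crosslinking genes, all 28 tested, had 6 higher and 3 lower in OSI, 1 higher and 2 lower in DAC, and 6 higher and 3 lower in DAC+OSI against Control. The 10-library counts were 12 higher and 5 lower in OSI, 3 higher and 6 lower in DAC, and 9 higher and 8 lower in DAC+OSI. LOX, the lysyl oxidase that crosslinks collagen, fell to 3.22 ± 0.932 CPM in DAC+OSI, against 6.87 ± 0.927 in Control (2.17-fold, adjusted p 0.00205). LOXL3, a relative of LOX, fell to 1.88 ± 0.109 CPM in DAC+OSI, against 3.48 ± 0.285 in Control (1.86-fold, adjusted p 0.00117). ADAMTS14, which trims procollagen, rose to 4.19 ± 1.61 CPM in DAC+OSI, against 1.31 ± 0.546 in Control (3.13-fold, adjusted p 0.00238). PCOLCE2, an enhancer of procollagen processing, rose to 9.71 ± 0.812 CPM in DAC, against 4.13 ± 0.655 in Control (2.34-fold, adjusted p 0.00249). In DAC, where COL1A1 lay within the range of Control, LOX (3.48 ± 0.264 CPM, 1.97-fold, adjusted p 0.0128) and LOXL3 (2.28 ± 0.279 CPM, 1.53-fold, adjusted p 0.0291) were also lower than in Control; the first call ended without DAC library 1 or 3, and the second without any single DAC or Control library, by library totals and without the filter. Between DAC+OSI and DAC neither passed the test (adjusted p 0.721 and 0.29).

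Smooth muscle contractile genes, 20 of 22 tested, had 5 higher and 3 lower in OSI, 3 higher and 1 lower in DAC (0 to 2 calls without any single DAC, OSI or Control library), and 5 higher and 2 lower in DAC+OSI against Control. With DAC+OSI library 2 and Control library 2 left out the counts were 7 higher and 4 lower in OSI, 5 higher and 1 lower in DAC, and 5 higher and 2 lower in DAC+OSI. MYL9, a regulatory myosin light chain, rose to 124 ± 11.9 CPM in OSI, against 23.6 ± 0.527 in Control (5.28-fold, adjusted p 1.48e-07), and to 69.5 ± 4.97 CPM in DAC+OSI (2.95-fold, adjusted p 1.51e-06). Its order of groups, OSI above DAC+OSI above Control, was that of TAGLN. SYNM, an intermediate filament gene, rose to 10.1 ± 0.497 CPM in OSI, against 4.84 ± 0.827 in Control (2.1-fold, adjusted p 0.000319), and to 12.2 ± 1.03 CPM in DAC+OSI (2.53-fold, adjusted p 3.06e-05). LMOD1, which nucleates actin filaments in smooth muscle, fell to 1.47 ± 0.185 CPM in OSI, against 5.22 ± 1.6 in Control (3.53-fold, adjusted p 0.000152), and had 5.61 ± 1.03 CPM in DAC+OSI, higher than in OSI (3.78-fold, adjusted p 9.69e-05). LMOD1 in DAC did not pass the test against Control (6.01 ± 0.337 CPM, adjusted p 0.612), where ACTA2 was low.

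Among fibroblast markers, 11 of 22 were tested, and 1, 1 and 2 were higher and 0 lower in OSI, DAC and DAC+OSI against Control. The 10-library counts were 3 higher and 1 lower in OSI, 2 higher and 0 lower in DAC, and 2 higher and 1 lower in DAC+OSI. FBLN1, fibulin-1, rose to 449 ± 11.3 CPM in OSI, against 123 ± 26.5 in Control (3.65-fold, adjusted p 0.0109, not called without Control library 1), and to 542 ± 491 CPM in DAC+OSI (4.4-fold, adjusted p 0.00341). Its DAC+OSI log2 fold change was 2.14, and 1.04 without DAC+OSI library 2. Library 2 of DAC+OSI was thus the highest for FBLN1 as for COL1A1 and COL1A2.

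Receptors for fibronectin and collagen, 18 of 19 tested, had 1 higher and 6 lower in OSI, 1 higher and 0 lower in DAC, and 6 higher and 3 lower in DAC+OSI against Control. In the 10-library fit these counts were 5 higher and 8 lower in OSI, 6 higher and 1 lower in DAC, and 6 higher and 4 lower in DAC+OSI. ITGA5, the alpha subunit of the fibronectin receptor, fell to 43.1 ± 1.17 CPM in OSI, against 73 ± 3.01 in Control (1.69-fold, adjusted p 0.000238). ITGB8 rose to 22.5 ± 2.82 CPM in DAC (2.89-fold, adjusted p 0.000647) and to 19 ± 4.2 CPM in DAC+OSI (2.45-fold, adjusted p 0.00048), against 7.77 ± 2 in Control. SDC1, a syndecan that binds matrix proteins, rose to 109 ± 3.8 CPM in DAC+OSI, against 67.3 ± 6.62 in Control (1.62-fold, adjusted p 0.000372).

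TGF-beta is the growth factor best known for raising collagen and ACTA2 in fibroblasts. Of 25 genes of its pathway and targets, all tested, 5 were higher and 2 lower in OSI, 3 higher and 2 lower in DAC, and 9 higher and 2 lower in DAC+OSI against Control. With DAC+OSI library 2 and Control library 2 left out the counts were 10 higher and 6 lower in OSI, 7 higher and 4 lower in DAC, and 12 higher and 4 lower in DAC+OSI. TGFBR3, betaglycan, a co-receptor, rose to 16.3 ± 1.72 CPM in OSI (4.52-fold, adjusted p 5.09e-06) and to 11.6 ± 1.83 CPM in DAC+OSI (3.22-fold, adjusted p 1.79e-05), against 3.61 ± 0.628 in Control. CCN2, a target of the pathway, rose to 25.3 ± 1.9 CPM in OSI, against 10.2 ± 0.629 in Control (2.48-fold, adjusted p 0.000133). SMAD6, an inhibitory SMAD, rose to 9.99 ± 1.63 CPM in DAC+OSI, against 4.27 ± 0.84 in Control (2.33-fold, adjusted p 0.000198).

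Matrix proteases and their inhibitors, 17 of 19 tested, had 3 higher and 4 lower in OSI, 2 higher and 4 lower in DAC, and 6 higher and 7 lower in DAC+OSI against Control. In the 10-library fit these counts were 6 higher and 5 lower in OSI, 7 higher and 6 lower in DAC, and 7 higher and 7 lower in DAC+OSI. TIMP3, a matrix-bound metalloproteinase inhibitor, fell to 66.5 ± 3.57 CPM in DAC (2.79-fold, adjusted p 8.04e-06) and to 74.3 ± 4.57 CPM in DAC+OSI (2.49-fold, adjusted p 3.91e-06), against 185 ± 6.22 in Control. PLAT, tissue plasminogen activator, fell to 14.7 ± 4.25 CPM in DAC+OSI, against 51.4 ± 5.73 in Control (3.52-fold, adjusted p 1.35e-05). TIMP2 rose to 184 ± 11.6 CPM in DAC+OSI, against 95.1 ± 5.14 in Control (1.93-fold, adjusted p 2.73e-05).

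The genes whose log2 CPM followed the set most closely over the 12 libraries were found by Pearson r, as a description in which treatment, depth and library composition are shared by all points. FMOD, which encodes fibromodulin, a small leucine-rich proteoglycan like lumican and decorin, was nearest to both COL1A2 (r = 0.936) and ACTA2 (r = 0.966). FMOD had 2, 2 and 0 counts in OSI, 0, 1 and 0 in DAC, 20, 32 and 29 in DAC+OSI and 31, 41 and 10 in Control. So FMOD, COL1A2 and ACTA2 were each lower in every OSI and DAC library than in any DAC+OSI or Control library. For COL1A2 the margin was narrow, with 7 counts in OSI library 1 against 8 in Control library 3. FMOD was picked for its likeness to COL1A2 and ACTA2, so a shared pattern follows from that choice. Between single groups, 32.1% to 40.2% of all tested genes did not overlap, and the share with this joint pattern was not counted.

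SFRP2, a secreted modulator of Wnt signalling, was the next to ACTA2 (r = 0.938), with 1, 0 and 0 counts in OSI, 5, 0 and 0 in DAC, 8, 12 and 14 in DAC+OSI and 20, 35 and 6 in Control. COL1A1 was followed most closely by the kinase gene MKNK2 (r = 0.974), which had 106, 106 and 109 CPM in OSI, 146, 161 and 152 in DAC, 200, 365 and 238 in DAC+OSI and 126, 172 and 136 in Control. TAGLN was followed by EFHD1 (r = 0.996), SLC27A3 (0.986) and CLU (0.983), SPARC by MME (0.981) and ADAMTS1 (0.98), and FN1 by THBS1 (0.959), the gene of the matrix protein thrombospondin-1. COL3A1 was followed by CTSL (0.922) and COL6A3 by MIRLET7BHG (0.92). THBS1 had 185, 201 and 177 CPM in OSI, 122, 129 and 117 in DAC, 82.4, 156 and 80.8 in DAC+OSI and 138, 203 and 140 in Control, so DAC+OSI library 2 stood apart from its group as for FN1.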

How the data were processed

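RNA of 12 PC9-OR libraries was measured as counts per Ensembl gene, which the authors deposited as raw counts for 39266 genes; CASAVA, HISAT2 and featureCounts are named per the submitters' processing notes, and versions, settings, genome build, annotation and strand are not given in these sources. Gene names were matched through a symbol table that held 39178 of the identifiers. Exon lengths (unions of exons), GC content, chromosomes and overlaps were read from GENCODE 29 (37919 of the identifiers matched), and promoters from RefSeq (GRCh38.p14).

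Counts were filtered with filterByExpr and scaled by TMM in edgeR 4.0.16 (R 4.3.3). A quasi-likelihood negative binomial model with 1 mean per group was fitted to all 12 libraries (biological coefficient of variation 20.9%). Tests were two-sided, with Benjamini-Hochberg adjustment over the 20820 tested genes in each of 6 comparisons and a threshold of 0.05. The standard error is the log2 fold change divided by the square root of F. Log2 CPM used a prior count of 2. The fit was tested on simulated data. No pair of libraries agreed within sampling noise.

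The members, lists and tests were chosen with earlier results of these data known. Named genes outside the set were, per list and comparison, up to 3 called genes with the smallest adjusted p, no overlap between groups and a mean of at least 1 CPM, some of which are not reported here, plus the 3 genes nearest to each tested member by Pearson r and the marker genes. ACTG2 and the genes overlapping a member were looked up for their shared sequence. Alternatives were RLE scaling, library totals, no filter, DESeq2 1.42.0, limma-voom (limma 3.58.1), the replicate number as a block, leaving out each library, and the 10-library fit.

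Same-numbered libraries of DAC+OSI and Control deviated together from their group means (correlations over genes 0.29, 0.43 and 0.2). Correlations between libraries with unlike numbers were not computed, and library 2 stood apart by GC content in both groups. These values therefore cannot tell whether the numbers, which the sample titles give, pair those libraries, and the replicate block is an alternative only. In the other comparisons the correlations lay between -0.0083 and 0.079 and the numbers were not taken to pair libraries.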

Additional observations from a re-analysis of the deposited data

Results flagged for a closer look

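The difference of DAC+OSI from OSI was unlike the difference of DAC from Control, by the interaction term of the edgeR model adjusted over all tested genes, for 3 genes of the set and 5 listed genes; 2.92% of all tested genes passed this test. For the genes of the set the differences are a description, since the genes were chosen with their levels known.

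COL1A1 had an interaction of 3.23 on the log2 scale, with a DAC+OSI level above OSI (2.9) where DAC differed from Control by -0.33. In the 10-library fit it was 2.30. ACTA2 had an interaction of 5.27, with DAC+OSI above OSI by 2.44 and DAC below Control by -2.83 on the log2 scale; it was 4.53 without Control library 2 and 4.17 in the 10-library fit. COL1A2 had a fitted interaction of 9.99, which rests on 10 counts in OSI and 11 in DAC, against 442 in DAC+OSI and 145 in Control, and depends on the prior count. It was 8 without DAC+OSI library 2 and 6.54 in the 10-library fit, and it was not called with limma-voom.

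Among the listed genes, LMOD1 had an interaction of 1.71 (adjusted p 0.0108) and TGFBR3 of -1.29 (adjusted p 0.0123), both called in all alternatives. COL13A1 had 1.37 (adjusted p 0.0209), a call that ended without Control library 1, OSI library 1 or 2, or DAC library 1 or 3. TIMP4 had 1.78 (adjusted p 0.0222), a call that ended without Control library 2 or any single OSI or DAC library, and 1.08 in the 10-library fit. TAGLN2 had -0.68 (adjusted p 0.0427), a call that ended in 12 of the 19 alternatives.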

How the results depend on the processing

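The 48 log2 fold changes of the 8 tested genes of the set gave 912 values over 19 alternatives, of which 869 moved by less than 1 SD between libraries and 43 by more; no called value changed sign. The 96 log2 fold changes of the other named genes gave 1824 values, of which 103 lost the call and 0 changed sign. Calls among the set's genes in DAC+OSI against Control were 3, and 5 by library totals, without the filter and with limma-voom, 6 with the replicate block and 6 in the 10-library fit. In OSI against Control they were 2, and 4 without the filter and with DESeq2 and 5 in the 10-library fit. For the interaction they were 3, and 5 in the 10-library fit. Leaving out each library gave 2 to 4 calls in OSI against Control, 1 to 4 in DAC against Control, 1 to 5 in DAC+OSI against Control, 4 to 6 against OSI, 3 to 6 against DAC and 3 to 4 for the interaction.

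Of the other listed genes, the interaction called 5, and 11 by library totals, 17 without the filter, 16 with DESeq2, 8 with the replicate block and 42 in the 10-library fit. The 10-library fit called 82 in OSI against Control (47 with 12 libraries), 57 in DAC against Control (25), 83 in DAC+OSI against OSI (35) and 58 in DAC+OSI against DAC (35). Leaving out each library gave 32 to 68, 10 to 50, 43 to 75, 17 to 49, 16 to 44 and 2 to 17 calls in the 6 comparisons. The replicate block changed no other count of calls by more than 1.5 times. Scaling by library totals moved the median interaction of all genes by -0.10 on the log2 scale. The cause of these differences was not tested. Counts under about 10 per library, as for COL1A2 in OSI and DAC and for LUM and DCN, limit any fold change.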
